A study of Homo sapiens with 6 samples.

Results

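Securinine was compared with its solvent in SH-SY5Y cells, a human neuroblastoma line with features of sympathetic neuroblasts, by setting 2 arrays of cells given 30 µM securinine for 24 h against 2 arrays of mock cells given methanol for 24 h. These are 4 of the 6 Affymetrix Human Gene 2.0 ST arrays of the series, and the other 2 arrays, of cells given 16F16 at 4 µM for 24 h, entered the model as a group of their own. The cells of the 3 groups are the same unmodified line in the same serum-containing medium, and no labelled allele or agent sets them apart other than the compound or solvent. Arrays of a group are labelled as biological replicates, with no word on how cultures were kept apart, so p-values measure the spread between these samples. The members described are the 14884 named genes, across which the 2 treatments were compared gene by gene.

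Securinine is a plant alkaloid that is known as an antagonist of GABA-A receptors, and the labels name it as an inhibitor of protein disulfide isomerase, an endoplasmic reticulum enzyme that makes and reshuffles the disulfide bonds of newly made proteins. Neuroblastoma arises from the sympathetic branch of the neural crest, and its cells combine traits of a dividing progenitor with those of a neuron that makes catecholamines, packs them with peptides into dense-core vesicles and extends neurites. The genes described here are those of metabolism and growth, of secretion, guidance and adhesion, of signalling and of gene regulation.

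The labelled line was checked against markers. Of 12 sympathetic neuroblast markers 9 were measured, with DBH, the enzyme that makes noradrenaline, at log2 signals of 12.5 and 12.4 in mock and 11.8 and 12.0 in securinine, and HAND2, a transcription factor of the lineage, at 11.3 and 11.2 in mock and 11.2 and 11.2 in securinine. In this list 3 genes fell (DBH by 0.59, GAP43 by 0.72 and STMN2 by 0.48) and 6 did not pass. Of the markers of other cell types, 1 of 7 mesenchymal, 1 of 6 Schwann cell and 1 of 5 blood and endothelial markers passed the test (THY1 at -0.46, FOXD3 at -0.61 and CD14 at 0.57). These marker calls are weak: of the 3 neuroblast falls 0, 0, 0 and 3 passed without mock replicate 1, mock replicate 2, securinine replicate 1 and securinine replicate 2, and THY1, FOXD3 and CD14 reached adjusted p of up to 0.136, 0.167 and 0.165. For the 7 epithelial markers limma called 0 genes, and 0 had an unadjusted p under 0.05. In RNA of whole cultures, fewer cells of a kind and less RNA per cell cannot be told apart.

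In limma's test across all named genes, 2823 of the 14884 genes (19.0%) passed at an adjusted p under 0.05. Of these 1251 (8.40%) were higher with securinine and 1572 (10.6%) were lower. Changes of at least 2-fold were fewer, with 105 rises (0.705%) and 216 falls (1.45%). The balance turned when all 53617 probe sets, named or not, were fitted, with 1426 called higher and 1073 lower, and 628 rises against 374 falls of at least 2-fold. Both securinine arrays lay above both mock arrays for 4018 genes (27.0%) and below them for 5039 (33.9%), while the values overlapped for 5827. The median difference over all genes was -0.035 on the log2 scale, and every difference below is on that scale, as securinine minus mock with the standard error (SE) of the fit, from 2 arrays against 2. The arrays were alike in overall level, with medians of 4.16 to 4.23, and correlated at 0.990 within mock, 0.990 within securinine and 0.979 to 0.981 between them.

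With so few arrays the count of calls rests on each of them. Without mock replicate 1, mock replicate 2, securinine replicate 1 or securinine replicate 2, in that order, 658, 629, 701 and 974 genes passed. The count of changes of at least 2-fold moved far less, with 100, 95, 87 and 99 rises and 193, 182, 190 and 223 falls. The 4 counts that follow a list below come from these 4 fits in the same order. Where a named gene missed the threshold in any of them, this is stated, in most cases with the highest adjusted p and the omitted array.

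**Figure D1:**
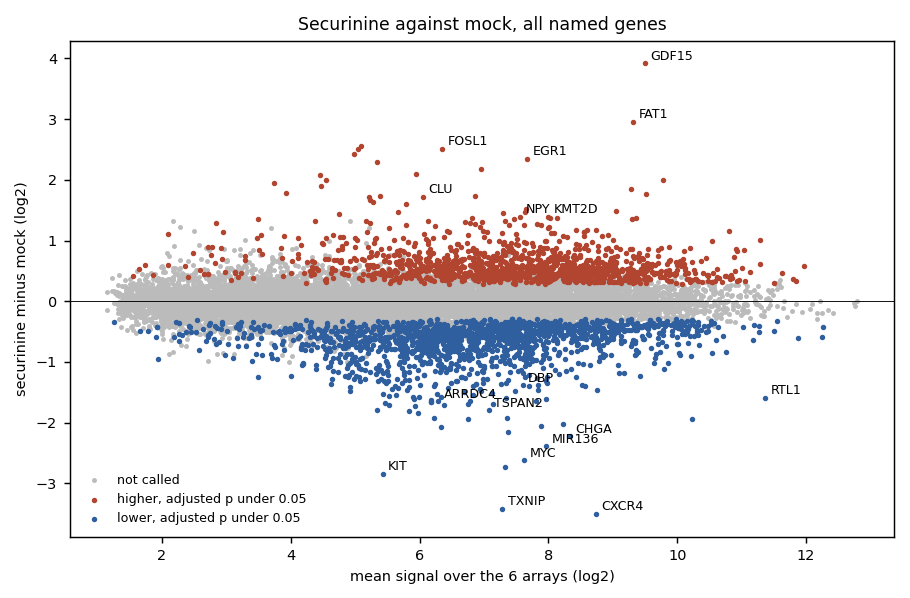
Difference between securinine and mock (log2, vertical axis) against the mean signal of the 6 arrays (log2, horizontal axis), 1 point for each of the 14884 named genes, with red for higher and blue for lower at an adjusted p under 0.05. The points reach from 3.92 for GDF15 to -3.50 for CXCR4, and the called points thin out toward low signals.

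Most of the called genes were protein-coding. Of 11916 such genes 1088 rose and 1457 fell, which is 21.4% of them. Of 1398 long noncoding RNA genes 72 rose and 74 fell (10.4%), and of 1072 microRNA genes 45 rose and 22 fell (6.25%). The signal level moved with these shares: 3.31% of genes in the lowest quartile of mean signal were called, 10.9% and 29.7% in the 2 middle quartiles, and 32.0% in the highest. Whether noncoding genes differ from coding genes of equal signal was not tested. The fits that left out an array, in the order above, called 225, 199, 217 and 310 coding rises and 360, 353, 415 and 555 coding falls.

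The 30 largest rises among the genes chosen by the naming rule ran from 1.33 to 3.92, with adjusted p from 0.0011 to 0.012, and 29 of them passed in all 4 fits that left out an array. The exception was MIR4435-2HG, a long noncoding RNA gene that rose by 1.60 ± 0.25 and had an adjusted p of 0.0723 without mock replicate 2 and of 0.0649 to 0.0699 without any of the others. The 30 largest falls ran from 1.58 to 3.50 in size, with adjusted p from 0.0011 to 0.0088, and 28 passed in all 4 fits. The exceptions were LPAR3, a lysophosphatidic acid receptor that fell by 1.78 ± 0.23 and reached 0.0553 without mock replicate 2 and 0.0515 without mock replicate 1, and PDGFRL, a secreted protein related to a growth factor receptor, which fell by 1.72 ± 0.23 and reached 0.0593 without mock replicate 2 and 0.051 to 0.0548 without the others.

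The following rises were also among the 30 largest. CLU, the secreted chaperone clusterin, read 5.22 and 5.17 in mock and 6.94 and 6.90 in securinine, a rise of 1.72 ± 0.10 or 3.31-fold. TFE3, a transcription factor that switches on lysosomal genes, read 7.37 and 7.35 in mock and 8.76 and 8.71 in securinine, a rise of 1.37 ± 0.075. Both groups were tight and far apart. KMT2D, a methyltransferase for lysine 4 of histone H3 at enhancers, read 7.44 and 7.18 in mock and 8.64 and 8.76 in securinine, a rise of 1.39 ± 0.13. NPY, a peptide transmitter of sympathetic neurons, read 6.89 and 6.86 in mock and 8.35 and 8.18 in securinine, a rise of 1.39 ± 0.12. SIK2, a kinase that restrains cyclic AMP-driven transcription, read 8.63 and 8.58 in mock and 10.0 and 9.92 in securinine, a rise of 1.37 ± 0.084. In each of these 3 genes the lowest securinine array stood above the highest mock array by more than either group's own spread. Further rises in this range were ABHD4 (a lipid hydrolase, 1.72 ± 0.12), EID3 (a subunit of the SMC5/6 complex, 1.72 ± 0.075), SUMO4 (a small ubiquitin-like modifier, 1.73 ± 0.16) and RIT1 (a small RAS-like GTPase, 1.35 ± 0.11).

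The following falls were also among the 30 largest. TSPAN2, a tetraspanin membrane protein, read 7.88 and 7.99 in mock and 6.18 and 6.11 in securinine, a fall of 1.79 ± 0.094 or 3.46-fold. DLL3, an inhibitory Notch ligand of neuroendocrine cells, read 7.85 and 7.89 in mock and 6.11 and 6.24 in securinine, a fall of 1.69 ± 0.085. ARRDC4, an alpha-arrestin that promotes removal of glucose transporters from the surface, read 6.94 and 6.98 in mock and 5.20 and 5.42 in securinine, a fall of 1.65 ± 0.099. The groups of all 3 genes were separated by well over the gap between replicates. DPP6, an accessory subunit of A-type potassium channels, fell by 1.71 ± 0.12, and RPH3A, a RAB3 effector on synaptic vesicles, by 1.63 ± 0.14. LMO3, a LIM-only cofactor studied in neuroblastoma, fell by 1.65 ± 0.11, and KLF9, a zinc finger factor induced by glucocorticoid and thyroid hormone, by 1.67 ± 0.16. TPPP3, a tubulin-binding protein, fell by 1.58 ± 0.097, and CDCA7L, a MYC-interacting nuclear protein, by 1.60 ± 0.091.

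**Figure D2:**
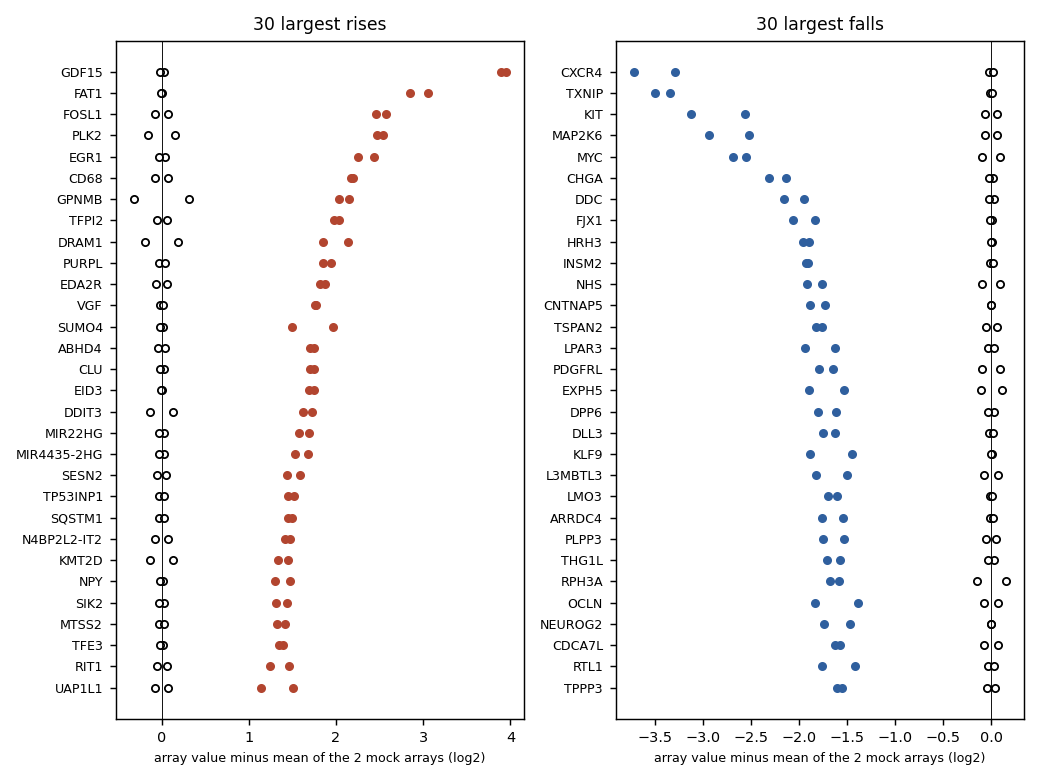
The 30 largest rises (left) and 30 largest falls (right), each array's value minus the mean of the 2 mock arrays (log2, horizontal axis), with open circles for the 2 mock arrays and filled circles for the 2 securinine arrays. In every row the filled circles lie clear of the open ones, by at least 1.33 on average among the rises and 1.58 among the falls.

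To look beyond single genes, 40 lists of named genes were counted. The lists were chosen with earlier results of these data known, so their shares are no separate evidence of direction. The shares of all genes, 8.40% for rises and 10.6% for falls, are the level against which each list's share is to be read, and the counts describe the lists without testing them. The circadian clock list and the list of serine, one-carbon and nucleotide synthesis had the highest shares of falls, at 53.3% and 52.5%. Ribosome biogenesis followed at 39.8%, alpha-arrestins and glucose-responsive genes at 38.9%, and neural crest and neural transcription factors at 32.3%. The highest shares of rises were 35.1% among sestrins, growth arrest and survival factors and 22.0% among chromatin enzymes, apart from a list of 22 assorted solute carriers at 22.7%. Calls were more frequent at high signal, and in the highest quartile of mean signal 17.5% of genes rose and 14.4% fell. The median signals of the serine list (7.97), the ribosome biogenesis list (7.78) and the chromatin list (7.88) lay in that quartile. The share of no list was tested against genes of like signal.

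**Figure D3:**
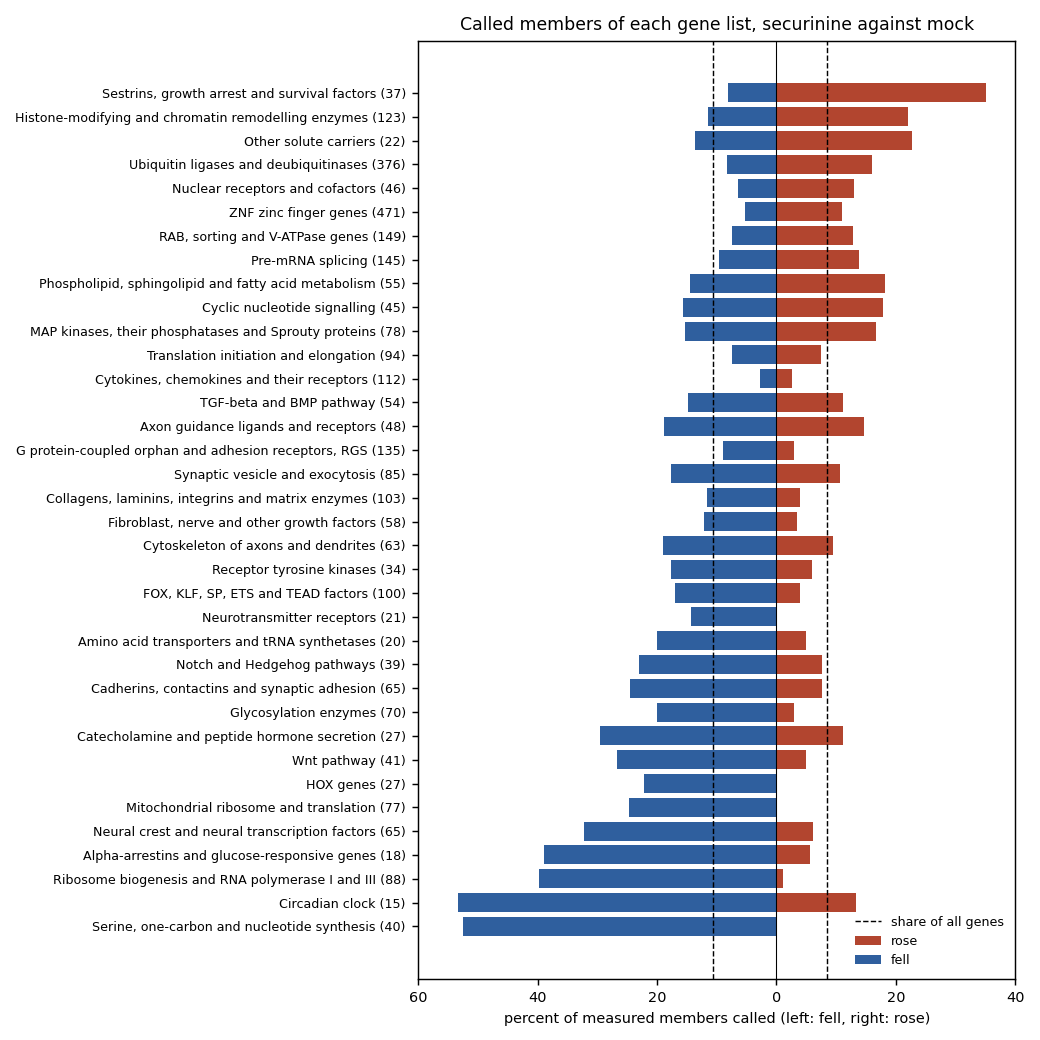
Share of the measured members of each list reported here with 15 or more of them that fell (blue, to the left) or rose (red, to the right) at an adjusted p under 0.05, with the number of measured members in brackets and dashed lines at the shares of all genes, 10.6% and 8.40%. Bars of the serine and clock lists reach furthest left, past 50% of members, and the bar of the survival list reaches furthest right.

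The molecular clock runs on a loop in which CLOCK and BMAL1 switch on PER and CRY genes, whose proteins then shut the pair off, and on output factors such as DBP and HLF that bind D-box sites. Of 28 listed genes 15 were measured, of which 8 fell, 2 rose and 5 did not pass, with a median of -0.42. DBP, a direct target of CLOCK and BMAL1, read 8.26 and 8.25 in mock and 6.86 and 6.87 in securinine, a fall of 1.39 ± 0.077. CLOCK itself read 9.13 and 9.15 in mock and 9.91 and 9.80 in securinine, a rise of 0.72 ± 0.081. The 2 replicates of each gene agreed closely and the groups were apart, in opposite directions. Among repressors, PER2 fell by 1.23 ± 0.17 (adjusted p 0.0581 without mock replicate 1), CRY1 by 0.82 ± 0.085, PER3 by 0.68 ± 0.14 (0.127 without mock replicate 2) and PER1 by 0.42 ± 0.099 (0.17 without mock replicate 1). HLF, the other output factor, fell by 1.06 ± 0.12, while TEF, another of that family, did not pass at -0.31. RORB, an activator of BMAL1, rose by 0.48 ± 0.081 (0.0919 without mock replicate 2), and RORA stood at 0.47 with an adjusted p of 0.051. BMAL1 stood at -0.24 and did not pass. The falls numbered 4, 4, 5 and 5 and the rises 1, 1, 1 and 1 with an array left out. With a single time point, a change of level and a shift of phase cannot be told apart.

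Of 54 listed enzymes that make serine, pass its carbon to folate and build nucleotides, 40 were measured. Of these 21 fell and 19 did not pass, with a median of -0.36 against -0.035 over all genes. PHGDH, which commits glycolytic carbon to serine, read 8.07 and 8.08 in mock and 6.89 and 6.91 in securinine, a fall of 1.18 ± 0.12 or 2.27-fold. PSAT1, the next enzyme, read 10.3 and 10.4 in mock and 9.23 and 9.27 in securinine, a fall of 1.11 ± 0.079. For both genes the securinine arrays were lower than mock by about a log2 unit, with replicates nearly equal. PSPH, which completes serine, stood at -0.22 and did not pass. Downstream, SHMT2, the mitochondrial enzyme that moves serine carbon onto folate, fell by 0.83 ± 0.091, and GLDC of the glycine cleavage system by 1.06 ± 0.15 (0.057 without mock replicate 2). CTH, which makes cysteine from cystathionine, fell by 0.76 ± 0.084.

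In nucleotide and polyamine synthesis, PRPS2, which makes the ribose phosphate donor, read 9.20 and 9.19 in mock and 8.37 and 8.17 in securinine, a fall of 0.92 ± 0.094. ODC1, the first enzyme of polyamine synthesis, read 10.9 and 10.9 in mock and 10.1 and 10.1 in securinine, a fall of 0.86 ± 0.092. Both passed in all 4 fits with an array left out. DHODH, the mitochondrial step of pyrimidine synthesis, fell by 0.88 ± 0.15 (0.082 without mock replicate 2), PFAS of purine synthesis by 0.85 ± 0.13 (0.0766 without mock replicate 2), and SRM, spermidine synthase, by 0.64 ± 0.077 (0.0506 without mock replicate 2). TYMS, thymidylate synthase, read 10.7 on each of the 4 arrays and stood at 0.08. The falls in the whole list numbered 7, 6, 8 and 12 with an array left out.

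**Figure D4:**
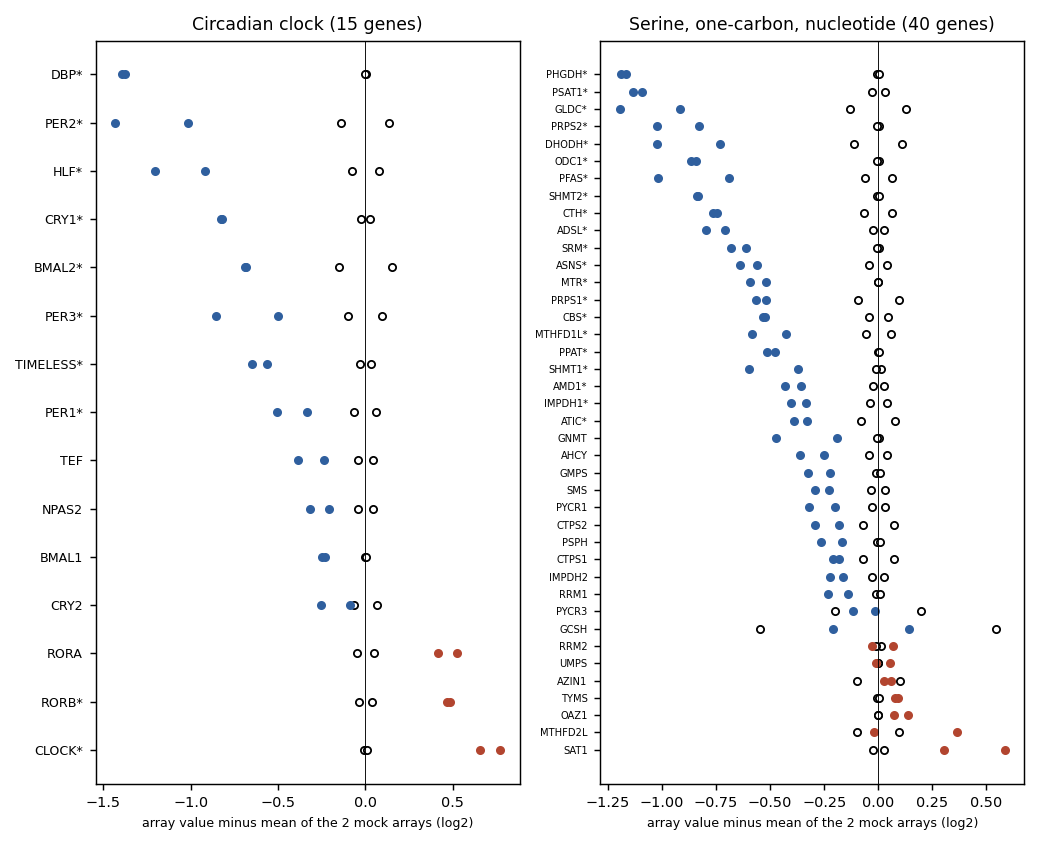
Each measured member of the circadian clock list (left, 15 genes) and of the serine, one-carbon and nucleotide list (right, 40 genes), as the array value minus the mean of the 2 mock arrays (log2, horizontal axis), with open circles for mock, filled circles for securinine and an asterisk after each called gene. DBP at -1.39 and PHGDH at -1.18 lie furthest left in their panels, while CLOCK lies furthest right on the left panel at 0.72.

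Alpha-arrestins and other genes that follow glucose supply had 7 falls and 1 rise among 18 measured of 44 listed, while 10 did not pass, and a median of -0.26 (3, 3, 3 and 3 falls with an array left out). TXNIP, which binds thioredoxin and blocks glucose uptake, fell 10.7-fold, and ARRDC4, its relative described above, 3.14-fold. HK2, the hexokinase of growing cells, read 8.32 and 8.31 in mock and 7.21 and 7.29 in securinine, a fall of 1.06 ± 0.092. These 3 genes passed in all 4 fits. MPC1, a subunit of the mitochondrial pyruvate carrier, fell by 0.69 ± 0.093 (0.0614 without mock replicate 1). MLX, the partner of the glucose-sensing factors that drive TXNIP and ARRDC4, rose by 0.42 ± 0.081 (0.116 without mock replicate 2).

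Lipid genes moved in both directions, with 10 rises and 8 falls among 55 measured of 92 listed (1, 1, 2 and 4 rises and 2, 3, 2 and 5 falls with an array left out) and a median of -0.05. CHKA, choline kinase of phosphatidylcholine synthesis, read 7.0 and 7.09 in mock and 8.10 and 8.19 in securinine, a rise of 1.10 ± 0.095. CPT1A, which admits fatty acids to mitochondria for oxidation, read 9.14 and 9.10 in mock and 8.25 and 8.27 in securinine, a fall of 0.86 ± 0.099. The 2 genes moved apart in all pairs of arrays. ELOVL2, which lengthens polyunsaturated fatty acids, fell by 0.78 ± 0.081. LPIN1, a phosphatidate phosphatase, rose by 0.59 ± 0.084 (0.067 without mock replicate 2), and FASN, fatty acid synthase, by 0.54 ± 0.11 (0.115 without mock replicate 2).

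Transcription factors of the neural crest and of neurons held more falls than rises, with MYC down by 2.62 ± 0.18 and INSM2 by 1.92 ± 0.079. Of 81 listed genes 65 were measured, of which 21 fell, 4 rose and 40 did not pass, with a median of -0.24 (8, 10, 10 and 13 falls and 0, 0, 0 and 2 rises with an array left out). Among factors of sympathetic development, GATA2 read 10.1 and 10.0 in mock and 8.96 and 9.13 in securinine, a fall of 1.01 ± 0.10. TFAP2B, a neural crest factor kept in adrenergic cells, read 10.8 and 10.8 in mock and 9.78 and 9.95 in securinine, a fall of 0.91 ± 0.10. MEIS1, a HOX cofactor, fell by 1.03 ± 0.080, and NEUROG2, a proneural factor, by 1.61 ± 0.13. All 4 passed in each fit with an array left out, and their groups did not overlap. POU3F2, a neural POU factor, fell by 1.19 ± 0.21 (0.0931 without mock replicate 1), and DLX5, a homeobox factor, by 1.15 ± 0.16 (0.0607 without mock replicate 1).

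The 4 rises in that list were HAND1, MXD1, TBX2 and TBX3, at 0.62, 0.57, 0.41 and 0.37. HAND1 is a relative of HAND2, MXD1 is an antagonist of MYC at E-boxes, and TBX2 and TBX3 are T-box repressors. The 4 missed the threshold in at least 3 of the fits with an array left out, with adjusted p up to 0.0618 for HAND1, 0.0689 for MXD1, 0.152 for TBX2 and 0.153 for TBX3. HOX genes, which record position along the body axis, were lower in 6 of 27 and the rest did not pass, with a median of -0.27. HOXD13 fell by 1.58 ± 0.22 (0.0616 without securinine replicate 1) and HOXD9 by 1.04 ± 0.17 (0.0746 without mock replicate 2). With an array left out the HOX falls numbered 0, 1, 2 and 2, so this list rests on all 4 arrays.

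Secretory genes of the sympathetic lineage split. Of 34 genes of catecholamine and peptide secretion 27 were measured, of which 8 fell, 3 rose and 16 did not pass, with a median of -0.11 (6, 5, 5 and 7 falls and 2, 2, 2 and 3 rises with an array left out). MAOA, a mitochondrial enzyme that breaks down monoamines, read 8.01 and 7.83 in mock and 6.58 and 6.55 in securinine, a fall of 1.35 ± 0.091. VIP, a vasodilator peptide, read 7.08 and 6.68 in mock and 5.19 and 5.51 in securinine, a fall of 1.53 ± 0.18. The largest change of the list was that of CHGA, a granin, which fell by 2.22 ± 0.092. NMU, neuromedin U, fell by 0.87 ± 0.080. The enzymes on either side of dopamine also fell, with DDC, which makes it, down by 2.05 ± 0.12 and MAOB, which degrades it, by 0.99 ± 0.15 (0.0726 without mock replicate 2). The 3 rises were VGF, a granin-like precursor, at 1.77 ± 0.074, NPY at 1.39 ± 0.12 and PAM, the enzyme that amidates peptide ends, at 0.55 ± 0.074 (0.0618 without mock replicate 2).

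On the machinery of vesicle release the counts were nearer those of all genes, with 15 falls and 9 rises among 85 (4, 4, 4 and 7 falls and 0, 0, 0 and 2 rises with an array left out) and a median of -0.06. SYT17, a synaptotagmin of the secretory pathway, fell by 0.83 ± 0.076, and STX7, a syntaxin of late endosomes, by 0.78 ± 0.094. STX3, a plasma membrane syntaxin, rose by 0.65 ± 0.12 (0.099 without mock replicate 1), and SYNJ1, which strips phosphoinositides from endocytic vesicles, by 0.61 ± 0.096 (0.0744 without mock replicate 2). Among 21 neurotransmitter receptor genes 3 fell and 18 did not pass (1, 1, 2 and 2 falls with an array left out). They were HRH3, a histamine autoreceptor, by 1.93 ± 0.088, ADRA2C, an alpha-2 adrenergic receptor, by 0.75 ± 0.098 (0.0562 without mock replicate 2), and DRD2, the D2 dopamine receptor, by 0.65 ± 0.10 (0.0742 without mock replicate 1). The list of voltage-gated channel symbols had 9 measured members, and these include KCNQ1OT1, a long noncoding RNA gene and not a channel. Of the 9 members 1 passed, KCNIP1 at -0.35, and that call was lost with any array left out.

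Of 48 axon guidance genes measured, 9 fell, 7 rose and 32 did not pass, with a median of -0.09 (7, 7, 5 and 6 falls and 2, 2, 5 and 3 rises with an array left out). The 3 Slit genes, whose products repel axons through Robo receptors, were all among the falls. SLIT1 read 7.51 and 7.59 in mock and 6.11 and 6.26 in securinine, a fall of 1.37 ± 0.13, SLIT3 fell by 0.72 ± 0.080 and SLIT2 by 1.10 ± 0.18 (0.0813 without securinine replicate 1). Of the plexins, which receive semaphorins, 4 rose and 1 fell. PLXNA2 read 8.20 and 7.96 in mock and 9.15 and 9.28 in securinine, a rise of 1.14 ± 0.12, and PLXNB2 rose by 0.85 ± 0.098. PLXNA3 rose by 0.64 ± 0.081 (0.0552 without mock replicate 1) and PLXNB1 by 0.47 ± 0.11 (0.165 without mock replicate 2), while PLXNA4 fell by 0.79 ± 0.15 (0.0972 without mock replicate 1). The netrin receptors were divided, with UNC5D lower by 1.14 ± 0.090 and UNC5A by 0.96 ± 0.094, and UNC5B higher by 0.60 ± 0.081 (0.0619 without mock replicate 2). EFNA3, an ephrin, fell by 1.20 ± 0.12.

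Genes of neuronal adhesion and of the neurite cytoskeleton held more falls than rises. The largest change among the adhesion genes was however a rise, that of FAT1 by 2.95 ± 0.096. Among 65 cadherin, contactin and synaptic adhesion genes 16 fell and 5 rose, with a median of -0.17 (7, 6, 10 and 10 falls and 3, 3, 4 and 3 rises with an array left out). NLGN1, a postsynaptic neuroligin, read 5.65 and 5.66 in mock and 4.39 and 4.43 in securinine, a fall of 1.25 ± 0.093. LRRN1, a leucine-rich repeat membrane protein studied in neuroblastoma, read 6.85 and 7.01 in mock and 5.56 and 5.61 in securinine, a fall of 1.35 ± 0.14. CNTN1, a contactin of axons, fell by 0.87 ± 0.085. CNTNAP2 went the other way, by 0.94 ± 0.086, and CNTNAP5 of the same neurexin-like family fell by 1.81 ± 0.20. Among 63 cytoskeletal genes 12 fell and 6 rose (2, 4, 2 and 7 falls and 2, 2, 2 and 2 rises with an array left out). MAPT, which encodes tau, read 6.70 and 6.74 in mock and 5.62 and 5.39 in securinine, a fall of 1.22 ± 0.11. MAP1A, a microtubule protein of mature neurons, read 6.86 and 6.87 in mock and 7.86 and 7.92 in securinine, a rise of 1.03 ± 0.076. The motors were split in the same way, with KIF1C, which carries dense-core vesicles, up by 1.13 ± 0.086 and KIF21B down by 1.22 ± 0.11.

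Notch signalling passes between neighbouring cells through Delta and Jagged ligands, and its list, with Hedgehog genes, held 9 falls and 3 rises among 39 measured of 41, with a median of -0.17 (5, 3, 4 and 6 falls and 0, 0, 0 and 0 rises with an array left out). JAG1, a Notch ligand, read 7.42 and 7.54 in mock and 5.98 and 5.99 in securinine, a fall of 1.50 ± 0.14 or 2.83-fold, beside the fall of DLL3 above. DLK1, a Delta-like protein of progenitors, read 10.2 and 10.2 in mock and 9.11 and 9.37 in securinine, a fall of 0.94 ± 0.11. The groups of both genes were apart. LFNG, which glycosylates Notch, fell by 1.09 ± 0.13 (0.0514 without securinine replicate 1) and NRARP, a target and inhibitor of the pathway, by 1.16 ± 0.21 (0.102 without securinine replicate 1). NUMBL, an antagonist of Notch, rose by 0.58 ± 0.086 (0.0688 without mock replicate 1).

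Wnt pathway genes leaned down, with 11 falls and 2 rises among 41 and a median of -0.20 (4, 4, 5 and 6 falls and 1, 1, 1 and 1 rises with an array left out). Of the receptors, FZD7 fell by 1.08 ± 0.10 and FZD2 by 1.07 ± 0.10. Of the secreted antagonists, SFRP1 fell by 1.02 ± 0.097, whereas DKK1 read 8.29 and 8.30 in mock and 9.25 and 9.29 in securinine, a rise of 0.97 ± 0.095. LRP6, the co-receptor that DKK1 blocks, rose by 0.53 ± 0.076 (0.0646 without mock replicate 2). In the TGF-beta and BMP list 8 of 54 fell and 6 rose (2, 2, 3 and 4 falls and 2, 1, 1 and 2 rises with an array left out). CHRDL1, a BMP antagonist, fell by 1.39 ± 0.15, SMAD3, a signal carrier, by 0.82 ± 0.11 (0.0593 without mock replicate 2), and SKIL, an inhibitor of SMADs, rose by 0.74 ± 0.10 (0.0634 without mock replicate 2).

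In the lists of receptor tyrosine kinase and growth factor genes, the called changes of at least 2-fold were falls, 2 and 3 in number. GDF15, which was counted in the TGF-beta and BMP list, rose by 3.92 ± 0.14. Of 34 receptor tyrosine kinase genes measured of 43 listed, 6 fell and 2 rose (3, 3, 3 and 3 falls and 1, 0, 1 and 1 rises with an array left out). KIT had the largest fall of these, by 2.84 ± 0.28. RET, the receptor for glial-derived neurotrophic factors, read 8.19 and 8.18 in mock and 6.93 and 6.85 in securinine, a fall of 1.30 ± 0.12. DDR1, a collagen receptor, rose by 0.66 ± 0.081 (0.0531 without mock replicate 2). Among 58 growth factor genes 7 fell and 2 rose (2, 3, 3 and 4 falls and 0, 0, 0 and 1 rises with an array left out). FGF14, an intracellular regulator of sodium channels, fell by 1.16 ± 0.10, and HGF, the ligand of MET, by 1.06 ± 0.15 (0.0608 without mock replicate 1). BDNF, a neurotrophin, rose by 0.56 ± 0.13 (0.156 without mock replicate 2).

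Inside the cell, MAP kinase genes were called in both directions, with 13 rises and 12 falls among 78 and a median of 0.03 (5, 5, 5 and 4 rises and 4, 5, 7 and 6 falls with an array left out). DUSP3, a phosphatase of ERK and JNK, read 6.59 and 6.49 in mock and 7.56 and 7.79 in securinine, a rise of 1.14 ± 0.11. SPRY4, a feedback inhibitor of receptor signals, rose by 0.96 ± 0.096, and PEA15, which holds ERK in the cytoplasm, by 0.86 ± 0.081. MAP3K5, which relays oxidative stress to p38 and JNK, read 5.53 and 5.60 in mock and 4.32 and 4.19 in securinine, a fall of 1.31 ± 0.11, in the same direction as MAP2K6, the p38 activator, at -2.73 ± 0.15. DUSP4 and DUSP6, phosphatases induced by ERK, moved apart, at 0.87 ± 0.12 (0.0621 without mock replicate 1) and -0.96 ± 0.15 (0.0742 without securinine replicate 1). Cyclic nucleotide genes had 8 rises and 7 falls among 45 (2, 1, 1 and 1 rises and 3, 1, 3 and 3 falls with an array left out), among them SIK2 above and ADCY1, a neuronal adenylyl cyclase, which fell by 0.80 ± 0.093.

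Immune and orphan receptors held few calls, and their signals were low. The median signal was 3.68 in the cytokine list and 4.33 in the orphan receptor list, and 5.36% and 11.9% of their members were called. Of all genes, 3.31% were called in the lowest quartile of mean signal and 10.9% in the next. The shares of these lists were not tested against genes of like signal. Of 112 cytokine, chemokine and receptor genes 3 rose and 3 fell (1, 1, 1 and 1 rises and 2, 1, 2 and 2 falls with an array left out), 2.68% each way. CXCR4, the chemokine receptor with the largest fall of all, is among them, as is EDA2R, a receptor of the tumour necrosis factor family, which rose by 1.84 ± 0.092. Of 135 G protein-coupled orphan and adhesion receptors and RGS genes 12 fell and 4 rose (3, 3, 6 and 5 falls and 0, 0, 1 and 0 rises with an array left out). RGS10, which shortens G protein signals, fell by 1.16 ± 0.15 (0.0561 without mock replicate 2).

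Tetraspanins, which organise receptors and integrins in membrane domains, were counted as a family after the value of TSPAN2 had been seen. Of 29 measured, 9 fell, 3 rose and 17 did not pass, with a median of -0.15 (5, 4, 6 and 6 falls and 1, 1, 1 and 1 rises with an array left out). Behind TSPAN2, the falls of at least 2-fold were TSPAN13 by 1.36 ± 0.11, TSPAN15, a partner of the protease ADAM10, by 1.27 ± 0.10, TSPAN7 by 1.27 ± 0.13 and CD9 by 1.36 ± 0.20 (0.0674 without mock replicate 2). CD63, the tetraspanin of late endosomes and lysosomes, read 7.89 and 7.87 in mock and 8.57 and 8.61 in securinine, a rise of 0.71 ± 0.074. Its groups lay far further apart than its replicates, in the direction opposite to the other members named here.

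Matrix genes had 12 falls and 4 rises among 103, with a median of -0.11 (3, 3, 5 and 4 falls and 2, 3, 2 and 2 rises with an array left out). LOX, which cross-links collagen, read 6.46 and 6.60 in mock and 5.09 and 5.04 in securinine, a fall of 1.46 ± 0.089. VCAN, the proteoglycan versican, read 7.38 and 7.25 in mock and 5.97 and 5.96 in securinine, a fall of 1.36 ± 0.083. Among the rises were the protease inhibitor genes TFPI2, by 2.00 ± 0.12, and TIMP1, by 0.87 ± 0.10. Enzymes that build and trim sugar chains held 14 falls, 7 of them of at least 2-fold, and 2 rises among 70, with a median of -0.14 (6, 6, 6 and 7 falls and 0, 1, 0 and 1 rises with an array left out). GALNT12, which starts mucin-type chains, fell by 1.56 ± 0.11, UGT8, which makes galactosylceramide, by 1.24 ± 0.11, and the heparan sulfate enzymes HS6ST2 and SULF2 by 1.17 ± 0.13 and 1.05 ± 0.11.

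Of 129 listed genes of ribosome biogenesis and of RNA polymerases I and III 88 were measured, of which 35 fell, 1 rose and 52 did not pass, with a median of -0.29. RRS1, an assembly factor of the large subunit, read 8.02 and 8.07 in mock and 7.15 and 7.10 in securinine, a fall of 0.92 ± 0.076, the largest of the list. NOP14 and NOB1, of small subunit assembly, fell by 0.65 ± 0.085 (0.057 without mock replicate 1) and 0.65 ± 0.078 (0.0513 without mock replicate 1). With an array left out the list held 3, 4, 4 and 10 falls, and the 1 rise, DDX52 at 0.31, did not (0.166 without mock replicate 2). Mitochondrial ribosome genes showed 19 falls among 77, and 58 did not pass, with a median of -0.19. The largest of these was MRPL16 at -0.69 ± 0.081 (0.0504 without mock replicate 1), and 1, 3, 1 and 3 falls passed with an array left out. Cytoplasmic translation genes had 7 rises and 7 falls among 94 and a median of 0.00 (2, 2, 1 and 1 rises and 2, 2, 3 and 4 falls with an array left out). In that list RPS27L, a p53 target, rose by 1.33 ± 0.10, and RPL22L1, the paralog of RPL22, fell by 1.12 ± 0.13.

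Chromatin enzymes leaned the other way. Of 123 measured, 27 rose, 14 fell and 82 did not pass, with a median of 0.09 (8, 7, 9 and 9 rises and 0, 0, 1 and 3 falls with an array left out). The paired histone acetyltransferases were both higher. CREBBP read 10.2 and 9.99 in mock and 11.0 and 11.1 in securinine, a rise of 0.99 ± 0.10, and EP300 read 8.67 and 8.54 in mock and 9.43 and 9.56 in securinine, a rise of 0.89 ± 0.091. HDAC5, a deacetylase that shuttles out of the nucleus on signals, rose by 0.86 ± 0.084, and CHD2, a remodelling enzyme, by 0.82 ± 0.077. Among the falls were DNMT3B, a DNA methyltransferase, by 0.67 ± 0.093 (0.0619 without mock replicate 1) and PRMT1, an arginine methyltransferase, by 0.61 ± 0.088 (0.0675 without mock replicate 2). In the list of nuclear receptors and cofactors 6 of 46 rose and 3 fell (3, 1, 2 and 3 rises and 1, 1, 1 and 1 falls with an array left out). Subunits of Mediator, which couples factors to RNA polymerase II, were divided: MED13 of the kinase module rose by 0.71 ± 0.074 and MED11 of the head fell by 1.20 ± 0.087.

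ZNF zinc finger genes, the largest family of transcription factors, had 52 rises and 25 falls among 471, with a median of 0.09 (7, 4, 8 and 8 rises and 3, 1, 3 and 8 falls with an array left out). Rises made up 11.0% of these genes and falls 5.31%, against 8.40% and 10.6% of all genes. With quantile normalization the list held 45 rises and 32 falls, and with each array centred on its median 39 and 29. The largest named moves were ZNF528 at 1.02 ± 0.11, ZNF79 at 0.99 ± 0.076 and, downward, ZNF114 at -1.28 ± 0.10. FOX, KLF, SP, ETS and TEAD factors leaned down, with 17 falls and 4 rises among 100 (3, 4, 6 and 6 falls and 1, 1, 1 and 3 rises with an array left out). ETV1, an ETS factor downstream of KIT in some cells, read 6.62 and 6.67 in mock and 5.31 and 4.84 in securinine, a fall of 1.57 ± 0.16. Splicing genes had 20 rises and 14 falls among 145 and a median of 0.02 (2, 3, 1 and 3 rises and 0, 1, 0 and 3 falls with an array left out). HNRNPC, which binds uridine tracts in nascent RNA, rose by 0.85 ± 0.11 (0.0548 without securinine replicate 1).

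Ubiquitin enzymes had 60 rises and 31 falls among 376, with a median of 0.02, yet most calls that passed with an array left out were falls (4, 4, 3 and 8 rises and 10, 9, 7 and 13 falls). TRIM25, a ligase that activates the RNA sensor RIG-I, read 8.43 and 8.45 in mock and 7.11 and 7.08 in securinine, a fall of 1.35 ± 0.080. HERC6, a ligase of the interferon response in mice, fell by 1.35 ± 0.15, and USP2, a deubiquitinase, by 1.17 ± 0.099. OTUD7B, a deubiquitinase of the NF-kappaB pathway, rose by 0.83 ± 0.091. Of 149 RAB, sorting and V-ATPase genes 19 rose and 11 fell (2, 1, 2 and 3 rises and 1, 1, 4 and 2 falls with an array left out), with VPS51 of endosome recycling down by 0.92 ± 0.098. In the list of sestrins, growth arrest and survival factors 13 of 37 measured rose and 3 fell, out of 71 listed, with a median of 0.19 (5, 4, 5 and 5 rises and 0, 0, 0 and 1 falls with an array left out). BAX, which opens the mitochondrial outer membrane, read 8.04 and 7.92 in mock and 9.10 and 9.21 in securinine, a rise of 1.17 ± 0.088, and SESN1, a sestrin that restrains mTORC1, rose by 1.0 ± 0.093. The list holds p53 targets and was chosen with their rise known, so its count is no separate evidence of direction.

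Transporters were thinly covered. Of 20 amino acid transporter and tRNA synthetase genes 4 fell and 1 rose (1, 0, 1 and 1 falls and 1, 0, 0 and 0 rises with an array left out), with VARS1, valyl-tRNA synthetase, down by 0.98 ± 0.12 (0.0533 without mock replicate 2). Of the 22 other solute carriers 5 rose and 3 fell (1, 1, 1 and 2 rises and 0, 0, 0 and 1 falls with an array left out). For the 5 measured genes of the ATPase and ABC transporter list limma called 0. All 5 were ATPases of the ATP13A family, and the list held no measured ABC transporter. The 1 measured histone gene, H2AP, had a low mean signal of 3.81 and was not called. In the ATPase and ABC transporter list and the histone list, 0 genes had an unadjusted p under 0.05. In the amino acid and other solute carrier lists 10 and 12 did.

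Among long noncoding RNA genes the largest called fall was of MCF2L-AS1, an antisense gene that read 7.08 and 7.05 in mock and 5.00 and 4.98 in securinine, a fall of 2.07 ± 0.080 or 4.21-fold. LINC02381 fell by 1.48 ± 0.10, MIMT1, an imprinted noncoding gene, by 1.48 ± 0.17 and LOC730101 by 1.51 ± 0.11. MIR22HG, the host gene of miR-22, read 4.73 and 4.67 in mock and 6.27 and 6.39 in securinine, a rise of 1.64 ± 0.086. The replicates of MCF2L-AS1 and of MIR22HG were close and the groups far apart. PURPL, a p53-induced noncoding gene, rose by 1.90 ± 0.16, and MALAT1, an abundant nuclear RNA, by 1.02 ± 0.091. The Cajal body RNA genes SCARNA7 and SCARNA9, guides for modification of spliceosomal RNA, rose by 1.18 ± 0.080 and 1.07 ± 0.11. Over all 1398 such genes the calls came to 22, 25, 25 and 33 rises and 14, 13, 14 and 22 falls with an array left out.

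The most compact change lay in the imprinted DLK1 to DIO3 domain of chromosome 14, where RTL1, a paternally expressed gene derived from a retrotransposon, overlaps microRNA genes on the opposite strand. Measured genes that are neighbours in RefSeq order and were called in the same direction formed 42 runs of 3 or more, 22 of falls and 20 of rises. The longest run, of 5 genes, was RTL1 with MIR431, MIR127, MIR432 and MIR136, the 4 measured microRNA genes that lie within its span. The mature microRNAs of these genes are given because the group is the longest run, with the seed (bases 2 to 8), the stretch that pairs with targets, in capitals. The array's probe sets report the gene or its precursor region and not the mature strands, and sequences and positions are RefSeq's on GRCh38.p14, plus strand.
hsa-miR-431-5p (chr14:100881026-100881046): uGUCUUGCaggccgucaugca
hsa-miR-431-3p (chr14:100881069-100881090): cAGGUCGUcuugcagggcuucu
hsa-miR-127-5p (chr14:100883001-100883022): cUGAAGCUcagagggcucugau
hsa-miR-127-3p (chr14:100883035-100883056): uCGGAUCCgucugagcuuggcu
hsa-miR-432-5p (chr14:100884496-100884518): uCUUGGAGuaggucauugggugg
hsa-miR-432-3p (chr14:100884544-100884564): cUGGAUGGcuccuccaugucu
hsa-miR-136-5p (chr14:100884716-100884738): aCUCCAUUuguuuugaugaugga
hsa-miR-136-3p (chr14:100884750-100884771): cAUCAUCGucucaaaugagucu

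The 8 seeds differ from each other, so the 4 genes were alike in position and not in seed. MIR136 read 8.98 and 9.05 in mock and 6.47 and 6.79 in securinine, a fall of 2.39 ± 0.13 or 5.23-fold. MIR432 read 8.38 and 8.30 in mock and 6.17 and 6.21 in securinine, a fall of 2.15 ± 0.081. MIR431 read 9.13 and 8.86 in mock and 6.85 and 7.08 in securinine, a fall of 2.03 ± 0.13. In each the securinine arrays stood lower by about the same step. MIR127 read 11.1 and 10.8 in mock and 8.92 and 9.14 in securinine, a fall of 1.93 ± 0.12. RTL1 read 11.9 and 12.0 in mock and 10.2 and 10.5 in securinine, a fall of 1.59 ± 0.13. All 5 genes passed in each fit with an array left out. Whether the probe sets tell RTL1 from the RNA of the opposite strand was not tested.

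Most other members of the domain did not pass the test. Of 57 measured genes between DLK1 and DIO3, 53 were microRNA genes, of which 8 fell and 45 did not pass, with a median of -0.04. The 4 falls outside the RTL1 span were MIR654 at -0.61, MIR134 at -0.67, MIR487A at -0.71 and MIR329-2 at -0.42, and each missed the threshold in at least 3 fits with an array left out, with adjusted p up to 0.129, 0.17, 0.0926 and 0.111. Altogether 5, 4, 4 and 5 of the microRNA genes fell in those fits. MEG3, the maternally expressed noncoding gene of the domain, read 3.71 and 3.46 in mock and 3.38 and 3.51 in securinine, with overlapping groups and a difference of -0.14. Signals were low for many members, with 28 of the 53 microRNA genes below the lower quartile of all values (2.82) on at least 4 arrays.

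**Figure D5:**
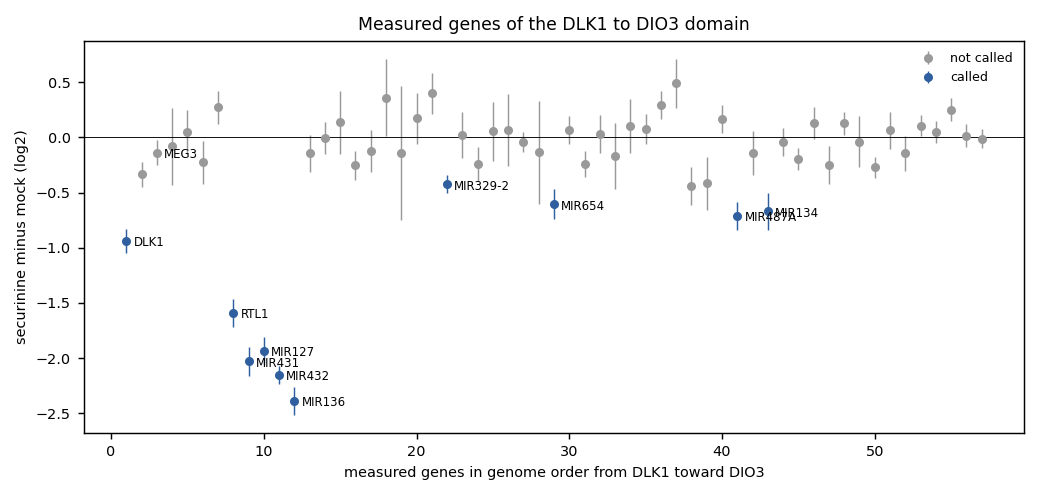
Difference between securinine and mock (log2, vertical axis, with bars of 1 SE) for the 57 measured genes of the DLK1 to DIO3 domain in genome order (horizontal axis, rank along the domain), with called genes in blue. RTL1, MIR431, MIR127, MIR432 and MIR136 stand together between -1.59 and -2.39, DLK1 lies at -0.94, and most other members scatter around 0.

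The largest rise of a microRNA gene was that of MIR3189, which lies in GDF15, the gene with the largest rise of all. It read 4.01 and 3.69 in mock and 6.30 and 6.51 in securinine, so MIR3189 rose by 2.55 ± 0.14 or 5.87-fold, with the groups well apart. Its mature strands are shown since it heads this class, again from RefSeq on GRCh38.p14, chromosome 19, plus strand.
hsa-miR-3189-5p (chr19:18386570-18386594): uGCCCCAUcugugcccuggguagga
hsa-miR-3189-3p (chr19:18386607-18386627): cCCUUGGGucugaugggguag
Next came MIR644A at 2.42 ± 0.33 (0.0592 without securinine replicate 1), MIR548AL at 2.29 ± 0.13 and MIR1204 at 2.08 ± 0.19. MIR573 fell by 1.24 ± 0.12. Over the 1072 microRNA genes the fits with an array left out gave 15, 17, 11 and 21 rises and 9, 7, 7 and 11 falls.

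Promoters of the changed genes were searched for 11 short motifs on both strands, in windows from 250 bases before to 50 bases after the RefSeq start. A match is a stretch of letters and not evidence of binding. Of 9707 measured protein-coding genes with a promoter in the table, 532 (5.48%) held the AP-1 letters TGANTCA, the site of FOS and JUN dimers. Among the 52 genes that rose at least 2-fold 7 (13.5%) held it, against 6 of 167 (3.59%) that fell at least 2-fold. The share was 5.00% among all 940 rises with a promoter, and the differences between these shares were not tested. Among rises of at least 2-fold alone, the share came to 11.5%, 13.7%, 12.5% and 14.8% with an array left out. The 7 genes were ANKRD1 (0.0538 without mock replicate 2), CD68, DDIT3, EDA2R, GPNMB, TFE3 and TFPI2.

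For 3 of the 7, all with rises of 2.00 or more, the windows are given with the AP-1 letters in capitals, from RefSeq on GRCh38.p14, each with 1 match. CD68, a lysosomal glycoprotein best known from macrophages, read 5.83 and 5.99 in mock and 8.10 and 8.09 in securinine, and its match, TGAGTCA, starts 100 bases before the start. GPNMB, a lysosomal membrane glycoprotein, read 4.70 and 5.33 in mock and 7.06 and 7.16 in securinine, with TGAGTCA at 134 bases. TFPI2, a secreted protease inhibitor, read 8.66 and 8.78 in mock and 10.8 and 10.7 in securinine, with TGAATCA at 87 bases. All 3 had both securinine arrays far above both mock arrays.
CD68 (chr17:7579388-7579687, plus strand): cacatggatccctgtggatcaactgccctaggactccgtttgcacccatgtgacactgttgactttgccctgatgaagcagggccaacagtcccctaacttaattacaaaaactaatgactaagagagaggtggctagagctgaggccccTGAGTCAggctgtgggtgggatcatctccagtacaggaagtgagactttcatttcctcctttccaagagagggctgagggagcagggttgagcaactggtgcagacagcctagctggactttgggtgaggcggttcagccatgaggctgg
GPNMB (chr7:23246525-23246824, plus strand): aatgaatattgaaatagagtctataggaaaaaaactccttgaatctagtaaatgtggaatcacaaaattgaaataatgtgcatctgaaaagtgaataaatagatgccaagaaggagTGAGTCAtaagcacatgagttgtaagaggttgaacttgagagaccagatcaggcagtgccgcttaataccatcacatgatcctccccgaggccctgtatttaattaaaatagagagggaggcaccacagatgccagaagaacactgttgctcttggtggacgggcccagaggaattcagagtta
TFPI2 (chr7:93890704-93891003, minus strand): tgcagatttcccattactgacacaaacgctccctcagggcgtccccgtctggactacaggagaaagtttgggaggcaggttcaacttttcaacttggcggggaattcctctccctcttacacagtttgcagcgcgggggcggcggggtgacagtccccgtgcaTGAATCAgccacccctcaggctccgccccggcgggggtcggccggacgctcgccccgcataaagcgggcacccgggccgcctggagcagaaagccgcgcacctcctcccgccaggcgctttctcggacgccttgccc

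The shares of other motifs are given as a description, with no test of a difference. The E-box CACGTG, which MYC, CLOCK and TFE3 all bind, was in 9.10% of all promoters, 13.5% of rises and 12.0% of falls of at least 2-fold. Its longer form TCACGTGA, which TFE3 and its relatives prefer, was in 1.57% of all promoters, in 3.85% of rises and 1.20% of falls of at least 2-fold, which are 2 genes each, and in 3.09% of the 940 rises of any size and 1.52% of the falls. The core TGACNNNGC of antioxidant response elements was in 14.4% of all promoters, 15.4% of rises and 12.0% of falls of at least 2-fold. It was in 18.3% of the 940 rises of any size and 12.8% of the falls. The CCAAT box was in 36.2%, 36.5% and 37.1% of all promoters, large rises and large falls. Base composition moved with these sets, with a median GC content of 63.7% over all promoters, 68.2% among large rises and 66.0% among large falls, and its part in the shares was not tested. The E-box letters lie within the longer form, so those counts overlap.

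A selection of the genes described here can be set beside their values for 16F16. That compound was given at another dose and compared with the same 2 mock arrays, so that the 2 differences share an error. The 2 largest rises, GDF15 and FAT1, stood at 3.92 and 2.95 with securinine and at 2.09 and 1.40 with 16F16. The 2 largest falls, CXCR4 and TXNIP, stood at -3.50 and -3.42 with securinine and at -0.99 and -1.33 with 16F16. MCF2L-AS1 stood at -2.07 with securinine and -0.11 with 16F16, MIR22HG at 1.64 and 0.13, VCAN at -1.36 and 0.05, and TRIM25 at -1.35 and -0.06. RTL1 stood at -1.59 and -0.22, PHGDH at -1.18 and -0.23, and ARRDC4 at -1.65 and -0.36. KIF1C stood at 1.13 and 1.05, JAG1 at -1.50 and -0.88, TSPAN2 at -1.79 and -0.79, and DBP at -1.39 and -0.56. In limma's test of 16F16 against mock, 223 genes had an adjusted p under 0.05. GDF15, FAT1, TXNIP, KIF1C, TSPAN2 and DBP were among them. CXCR4 (0.072), JAG1 (0.052), MIR22HG, VCAN, TRIM25, RTL1, PHGDH and ARRDC4 did not pass with 16F16. Since doses differed, the values are given without a comparison of the compounds.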

How the data were processed

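Total RNA of 6 samples was labelled as biotinylated cDNA and hybridised to 6 arrays, 1 colour and 1 array each, per the labels' protocols. Values were deposited on the log2 scale for 53617 probe sets. The submitters' processing notes name RMA and limma, with no version or role. RMA subtracts background, brings arrays to a common scale and combines probes, so values are relative and a shift common to most genes would be lost. No detection calls were used, and the array's genome build and annotation release were not given in the sources used here.

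A platform annotation table gave 1 symbol to 16098 probe sets (30.0%), several to 0 and none to 37519. All 16098 matched RefSeq genes of GRCh38.p14. The 16098 covered 14884 genes, with the probe set of highest mean kept for 779 genes that had several. NQO1 is not analysed here.

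Genes were tested with limma 3.58.1 in R 4.3.3 (lmFit and eBayes), with group as the model's single factor over the 6 arrays and with 3 residual and 2.68 prior degrees of freedom. Two-sided p-values were adjusted over 14884 genes (Benjamini-Hochberg), with calls at an adjusted p under 0.05. "Rose" and "fell" refer to called genes. Precision is limited by the number of arrays, with a median SE of 0.11. The script was tested on simulated data.

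The named genes were the 30 largest rises and 30 largest falls among called genes whose arrays did not overlap (leaving out small RNA, uncharacterised, antisense and pseudogene symbols), up to 5 members per list by lowest adjusted p, the family of a named gene, and the 5 largest called changes each way among noncoding genes of each type. Members and the 40 lists were chosen with earlier results of these data known. Of the lists, 1 is not reported here. Alternatives were the replicate block, 4 arrays alone, each array left out, a variance trend, other normalizations, the mean of a gene's probe sets, brighter genes and all probe sets.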

Additional observations from a re-analysis of the deposited data

How the results depend on the processing

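The count of called genes depends on each array. Leaving out 1 mock or securinine array gave 629 to 974 calls in place of 2823, 253 to 380 of them higher and 376 to 594 lower, while changes of at least 2-fold numbered 87 to 100 rises and 182 to 223 falls; the fits then have 1 residual degree of freedom fewer and assume that a lone array varies like the other groups. Of the 261 called genes that the naming rule chose, 73, 70, 67 and 45 missed the threshold without mock replicate 1, mock replicate 2, securinine replicate 1 and securinine replicate 2. A trend of the variance with signal raised the rises to 1931. Fitting the genes above the median signal alone gave 3829 calls, 1852 higher and 1977 lower, and 69 rises and 154 falls of at least 2-fold; the cause of the higher count of calls was not tested. Fitting all 53617 probe sets, named or not, turned the balance, with 1426 called higher and 1073 lower and 628 rises and 374 falls of at least 2-fold; it gave counts only. With the 4 arrays alone 2462 genes passed, with quantile normalization 2916, with each array centred on its median 2686 and with the mean of a gene's probe sets 2791. Quantile normalization and centring moved the median of all genes to -0.06 and -0.07, and 1098 and 1016 genes were then higher and 1818 and 1670 lower. Under the settings with a value for each named gene, 0 of the 261 changed sign (211 of them in the fit of brighter genes), and over all called genes 2 did, with the mean of probe sets.

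Replicate numbers repeat across groups, and a fit with the replicate number as a block called 2066 genes (889 higher, 1177 lower), of which 2005 were called without it, and 11 of the 261 named genes were lost. Deviations of same-numbered arrays from their group means correlated at -0.03 for mock and securinine, 0.04 for mock and 16F16 and -0.05 for securinine and 16F16, so the arrays share a number and no pairing was assumed.

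Limits are that 2 arrays a group give a median SE of 0.11 on the log2 scale, that 37519 unnamed probe sets were left out, and that lists such as transporters and histones had few measured members.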
